A study of Mus musculus with 24 samples.

Results

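A list of 10 genes of vascular endothelial cells, the cells that line blood vessels, was followed in RNA sequencing libraries of the mouse lacrimal gland (LG) and of LG stem cell (LGSC) spheres. They were taken by name (Pecam1, Cdh5, Kdr, Flt1, Tek, Tie1, Vwf, Emcn, Esam and Egfl7), and all 10 had an Ensembl identifier among the 63862 genes listed in each library. All mice were C57BL/6 and carried no other allele in the labels. Of 24 samples listed, 20 libraries were compared. They were adult LG, embryonic LG of the stages E17.5 and E19.5 (E, embryonic day), with 3 libraries each, and passage 2 (P2) LGSC spheres at culture day 5 (2 libraries) and at days 7, 10 and 14 (3 libraries each). The spheres were grown from dissociated glands of young adult mice, several weeks old by the study's methods, in Matrigel under a serum-free medium with EGF, FGF10, Wnt3A and Y-27632. The age of the mice behind the adult LG libraries, and whether replicates came from separate mice or pools, were not given, so p-values measure the spread between these libraries, which may be technical. A P10 library at day 7 was read by value alone, and day 5 replicate 3 and the P6 and P20 libraries were not analysed here.

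Endothelial cells are held together by the cadherin Cdh5 and by Pecam1 and Esam at their junctions. They sense vascular endothelial growth factors (VEGF) through the receptor kinases Kdr and Flt1, and angiopoietins through Tek, also known as Tie2, whose relative Tie1 forms complexes with it. Kdr carries most of the growth signal, whereas Flt1 binds VEGF tightly and also exists as a secreted form that traps the ligand. Capillaries run close to the secretory acini of exocrine glands, and vessels form in the mesenchyme around the growing gland bud.

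For sequence context, the stretch just upstream of the annotated start is shown for a gene that was lower in embryonic LG (Flt1), a gene that was higher (Tek) and a pair that did not pass the test (Tie1 and Emcn). The sequences are those of RefSeq promoters in build GRCm38.p6, given 5′ to 3′ on the strand of the gene and ending at the base before the outermost annotated start. A promoter was held for 6 of the 10 genes, and none was held for Pecam1, Cdh5, Vwf and Esam. Capitals mark the letters AGGAAG or CGGAAG on either strand, a core bound by ETS family factors, the family that controls many endothelial genes.
Flt1, chr5:147726012-147726261, minus strand: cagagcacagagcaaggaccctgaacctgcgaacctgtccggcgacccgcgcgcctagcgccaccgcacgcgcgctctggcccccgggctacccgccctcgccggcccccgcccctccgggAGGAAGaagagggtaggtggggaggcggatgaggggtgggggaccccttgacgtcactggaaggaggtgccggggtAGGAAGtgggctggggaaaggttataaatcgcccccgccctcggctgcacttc
Tek, chr4:94739039-94739288, plus strand: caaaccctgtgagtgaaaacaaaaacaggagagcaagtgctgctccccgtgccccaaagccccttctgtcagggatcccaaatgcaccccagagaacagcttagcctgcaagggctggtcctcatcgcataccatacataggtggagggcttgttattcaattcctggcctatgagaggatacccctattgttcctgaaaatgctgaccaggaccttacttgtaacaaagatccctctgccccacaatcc
Tie1, chr4:118490062-118490099, minus strand: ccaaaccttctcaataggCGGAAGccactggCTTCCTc
Emcn, chr3:137340828-137341066, plus strand: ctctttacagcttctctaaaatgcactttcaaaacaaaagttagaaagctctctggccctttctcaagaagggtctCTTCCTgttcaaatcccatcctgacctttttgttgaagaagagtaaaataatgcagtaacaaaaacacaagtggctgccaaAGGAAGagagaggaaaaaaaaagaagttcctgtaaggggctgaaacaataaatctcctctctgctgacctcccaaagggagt
Searched on both strands, AGGAAG was found in 29.5% and CGGAAG in 13.6% of the 32851 mouse promoters of 250 bases, and 39.2% held at least 1 of them. Flt1 held AGGAAG at 48 to 53 and at 124 to 129 bases upstream of the RefSeq start. In Tie1, CGGAAG lay 227 to 232 bases upstream and AGGAAG lay on the opposite strand at 214 to 219 bases. Emcn held AGGAAG at 88 to 93 bases and, on the opposite strand, at 169 to 174 bases. No such core was in the Tek stretch. The GATA factor motif AGATAA, present in 9.99% of all promoters, was in no promoter held for the 10 genes. The Flt1 stretch was 70.4% G or C, against 51.2% in Tek, 40.6% in Emcn and a median of 52.4% over all promoters.

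Values were deposited as FPKM (fragments per kilobase of transcript, scaled by a factor per library), a level per gene length, so levels can be set side by side between genes. Whole reads recovered from the steps of the values gave 6063526 to 9454859 reads per library. Of the reads of adult LG replicates 1, 2 and 3, 52.9%, 51.1% and 25.2% fell on the 10 genes with most reads, and at most 7.88% in any other compared library. Adult LG replicate 3 stood apart from replicates 1 and 2. Its FPKM was 1.87-fold (Vwf) to 4.45-fold (Egfl7) that of replicate 1 for the 7 better expressed endothelial genes, and Actb, which encodes a cytoskeletal actin, was 2.05-fold higher. Gapdh, a gene that cells generally use, and the epithelial genes Epcam and Krt8 were listed at 0 in all 20 libraries. A value near 0 here thus does not show that a gene was silent. The gland's own markers were low too. Aqp5, the water channel of acini, was at 0.472 to 0.568 FPKM in adult LG, and Ltf, a tear protein, was at 0.961 to 6.65 FPKM, whereas the epithelial cadherin Cdh1 was at 121 to 146 FPKM. In bulk tissue, fewer endothelial cells and less RNA per cell cannot be told apart.

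**Figure D1:**
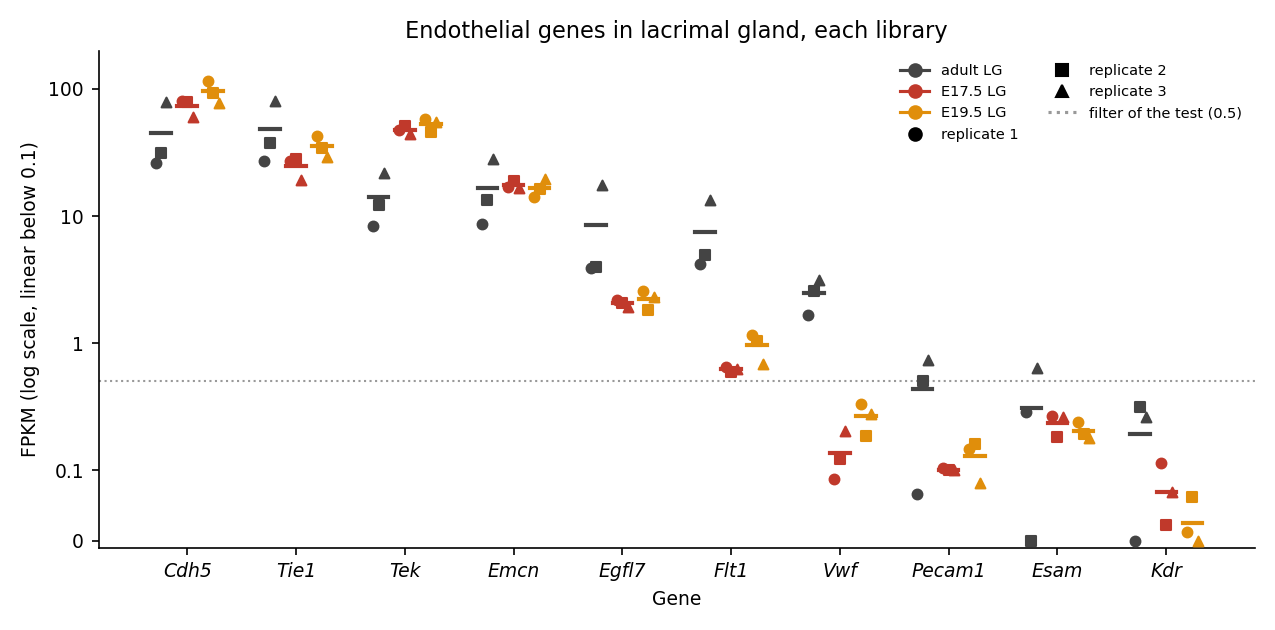
FPKM (log scale, linear below 0.1) of the 10 endothelial genes in each of the 9 LG libraries, with the group mean as a bar. The dotted line at 0.5 FPKM is the mean a gene had to reach to be tested, and adult LG replicate 3 (triangle) lies above both other adult libraries in every gene except Kdr.

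In LG, the endothelial genes did not move as a block between the adult and the embryonic gland. On the log2(FPKM + 1) scale and with the values as deposited, Tek was higher in embryonic LG while Flt1, Vwf and Egfl7 were lower, and Cdh5 was higher at E19.5. Tie1 and Emcn did not pass the test at either stage as deposited, but both did under other scalings of the libraries, given below. Of the 10 genes, 7 reached a mean of 0.5 FPKM and were tested, and Pecam1, Kdr and Esam did not. At E17.5, 1 gene was higher and 3 were lower than in adult LG by limma with an adjusted p under 0.05, when 54% of all 18578 genes tested were called (29.1% higher and 24.9% lower). At E19.5, 2 were higher and 3 were lower, when 54.2% of all genes were called (30.3% higher and 23.9% lower). Of the lower genes, Vwf passed the filter on low values through adult LG only and had to differ. Nothing is read from these counts about endothelial genes as a class, since 4 of 7 is near the background share and the split turned with the scaling. Scaled to the sum of FPKM, 3 of 6 tested were higher and 0 lower at each stage (median 1.64 at both). Of all genes, 71.7% and 66.7% were then higher and 4.92% and 4.54% lower. Scaled to Cdh5, 1 of 7 was higher and 4 lower at E17.5 (median -1.64), beside 13.7% and 31.9% of all genes. At E19.5, 0 were higher and 5 lower (median -1.50), beside 10.8% and 39.1%. Cdh5 is 1 of these 7, and its difference is 0 by construction in that scaling. Without overlap between the groups, Tek was higher at both stages, as were 32.3% and 33% of all genes, and Flt1, Vwf and Egfl7 were lower, as were 27.2% and 25.8%. The median log2 difference of the 7 was -0.80 in E17.5 LG and -0.30 in E19.5 LG, against 0.05 and 0.09 over all genes. Both stages were set against the same 3 adult libraries.

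Of the genes of endothelial junctions and the cell surface, Cdh5 (VE-cadherin, chr8:104101625-104144511, GRCm38, plus strand) was the most abundant of the 10 genes in embryonic LG. Its FPKM was 26.3, 31.4 and 78.7 in adult LG replicates 1 to 3, 80.6, 79.1 and 60.4 in E17.5 LG, and 116, 93.7 and 77.3 in E19.5 LG. Adult replicates 1 and 2 were lower than every embryonic library, and adult replicate 3 lay among them, so the groups overlapped. The mean was 45.5 ± 28.9 FPKM (SD, n = 3) in adult LG, 73.4 ± 11.3 in E17.5 LG and 95.7 ± 19.46 in E19.5 LG. The log2 difference was 0.84 (SE 0.377, limma adjusted p = 0.0915) at E17.5 and 1.21 (adjusted p = 0.0248) at E19.5. Without adult replicate 3 Cdh5 also passed at E17.5 (1.31, limma adjusted p = 6.85e-04). The E19.5 call was lost without adult replicate 1 (adjusted p = 0.0752), adult replicate 2 (0.0814), E19.5 replicate 1 (0.0825) or E19.5 replicate 2 (0.0624).

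Emcn (endomucin, a sialoglycoprotein of capillary and venous endothelium, chr3:137341067-137432185, plus strand) showed nearly the same mean in all 3 groups. Its FPKM was 8.66, 13.3 and 28.3 in adult LG, 16.8, 18.7 and 16.7 in E17.5 LG, and 14.2, 16.4 and 19.7 in E19.5 LG. Every embryonic library lay inside the adult range. The means were 16.7 ± 10.3 (SD, n = 3), 17.4 ± 1.13 and 16.8 ± 2.74 FPKM, and the log2 difference from adult LG was 0.21 (95% interval -0.60 to 1.01, limma adjusted p = 0.642) at E17.5 and 0.15 (-0.66 to 0.95, adjusted p = 0.749) at E19.5. The adult libraries decided this value. Without adult replicate 3 Emcn was higher in embryonic LG (0.65, limma adjusted p = 0.0184, and 0.59, adjusted p = 0.0277), and without adult replicate 1 the sign turned (-0.15 and -0.21).

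Pecam1 (CD31, chr11:106654217-106750628, minus strand) and Esam (an immunoglobulin-like adhesion molecule, chr9:37528078-37538319, plus strand) were close to the lower limit of these libraries and were not tested. Pecam1 was at 0.0666, 0.506 and 0.737 FPKM in adult LG, from 1, 10 and 35 reads, at 0.100 to 0.103 in E17.5 LG, and at 0.147, 0.161 and 0.0819 in E19.5 LG. Esam was at 0.289, 0 and 0.640 FPKM in adult LG, at 0.269, 0.181 and 0.262 in E17.5 LG, and at 0.239, 0.194 and 0.178 in E19.5 LG. No library held more than 14 reads of Esam. These levels lay far below Cdh5 in the same libraries, and with so few reads the groups could not be compared. As genes such as Gapdh were listed at 0 in the same tables, a low value here does not show a low transcript level.

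Among the receptors, Tek rose and the related Tie1 did not pass the test. Tek (chr4:94739289-94874976, plus strand) was at 8.36, 12.3 and 21.7 FPKM in adult LG, 48.0, 50.9 and 44.6 in E17.5 LG, and 57.8, 45.9 and 54.7 in E19.5 LG. All 6 embryonic libraries were above all 3 adult libraries. The mean was 14.1 ± 6.84 (SD, n = 3) FPKM in adult LG, 47.8 ± 3.17 at E17.5, a ratio of 3.39, and 52.8 ± 6.17 at E19.5, a ratio of 3.74. The log2 difference was 1.79 (SE 0.288, limma adjusted p = 9.24e-04) and 1.92 (adjusted p = 6.71e-04), and the call stood without any single library.

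Tie1 (chr4:118471191-118490061, minus strand), an orphan receptor that pairs with Tek, was at 27.1, 37.3 and 80.2 FPKM in adult LG. It was at 26.9, 28.2 and 19.2 FPKM in E17.5 LG and at 42.6, 34.5 and 29.0 FPKM in E19.5 LG. Adult replicate 3 was the highest library, and the other adult libraries overlapped the embryonic ones. The means were 48.2 ± 28.1 (SD, n = 3), 24.8 ± 4.90 and 35.4 ± 6.84 FPKM, and the log2 difference was -0.80 (SE 0.366, limma adjusted p = 0.0941) at E17.5 and -0.30 (adjusted p = 0.510) at E19.5. Without adult replicate 1 Tie1 was lower at E17.5 (-1.13, limma adjusted p = 0.0246), and without adult replicate 3 the sign turned at E19.5 (0.13, adjusted p = 0.635).

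Flt1 (VEGF receptor 1, chr5:147561604-147726011, minus strand) had the largest fall on the log2(FPKM + 1) scale, while by the ratio of mean FPKM Vwf fell further (to 0.0558 and 0.108 of adult LG, against 0.0833 and 0.128 for Flt1). Flt1 was at 4.17, 4.95 and 13.3 FPKM in adult LG, 0.647, 0.592 and 0.629 in E17.5 LG, and 1.15, 1.04 and 0.689 in E19.5 LG. No embryonic library reached the lowest adult library. The mean was 7.48 ± 5.06 (SD, n = 3) FPKM in adult LG, 0.623 ± 0.0284 in E17.5 LG and 0.960 ± 0.241 in E19.5 LG. Flt1 was lower by a log2 difference of -2.23 (SE 0.342, limma adjusted p = 7.07e-04) and -1.96 (adjusted p = 0.00149), which understates the fall of a gene under 1 FPKM since 1 was added to each value. The main VEGF receptor Kdr (chr5:75932827-75978458, minus strand) was not tested. It was at 0, 0.314 and 0.261 FPKM in adult LG, 0.114, 0.0230 and 0.0692 in E17.5 LG, and 0.0127, 0.0616 and 0 in E19.5 LG, from at most 18 reads.

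Both secreted products were lower in embryonic LG. Vwf, the clotting glycoprotein stored by endothelial cells and also made by megakaryocytes (chr6:125546774-125686679, plus strand), was at 1.68, 2.59 and 3.13 FPKM in adult LG. It was at 0.0880, 0.123 and 0.202 FPKM in E17.5 LG and at 0.335, 0.187 and 0.278 FPKM in E19.5 LG, from 11 to 47 reads a library. The groups did not overlap, and the log2 difference was -1.59 (SE 0.174) at E17.5 and -1.43 at E19.5. Its p is not given, since it passed the filter on low values through adult LG only. The summed FPKM of 8 platelet and megakaryocyte genes moved the other way, from 7.91 to 20.6 in adult LG to 65.2 to 87.9 in E17.5 LG and 195 to 246 in E19.5 LG, most of it Pf4.

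Egfl7 (an endothelial matrix protein, chr2:26580014-26593120, plus strand) was at 3.94, 3.96 and 17.502 FPKM in adult LG. It was at 2.19, 2.09 and 1.92 FPKM in E17.5 LG and at 2.56, 1.83 and 2.31 FPKM in E19.5 LG. All embryonic libraries were below all adult libraries, but adult replicate 3 made up most of the adult mean of 8.47 ± 7.82 (SD, n = 3) FPKM. The log2 difference was -1.33 (SE 0.455, limma adjusted p = 0.0361) at E17.5 and -1.25 (adjusted p = 0.0444) at E19.5. Without adult replicate 3 it was smaller but passed (-0.69, limma adjusted p = 0.00200, and -0.62, adjusted p = 0.00357), and it no longer passed when any of the 6 embryonic libraries was left out (adjusted p 0.0524 to 0.0897 and 0.0641 to 0.116). Of its 3581 exon bases, 401 are shared with the neighbouring genes Agpat2 and Gm20532 and the microRNAs Mir126a and Mir126b, and the strand setting of the counting was not given in the sources used here, so its level is uncertain. No other endothelial gene of the 10 shared exon bases.

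The direction of several of these differences depended on how the libraries were scaled. Scaling each library to its own recovered reads moved the median log2 difference of all genes from 0.05 to 0.58 in E17.5 LG and from 0.09 to 0.53 in E19.5 LG, and of the called genes 79.6% and 79.1% were then higher, against 53.8% and 55.9% as deposited. Scaling to the sum of FPKM moved the median to 1.13 and 0.999, with 93.6% of calls higher at both stages. Scaling to Cdh5, so that endothelial genes are read per Cdh5 transcript, moved it to -0.60 and -0.77, with 30% and 21.7% of calls higher. Cdh5 passed at E17.5 when scaled to own reads (1.70, limma adjusted p = 0.0375) or to the sum of FPKM (2.89, adjusted p = 0.00561), and stayed past the threshold at E19.5 under both (1.96 and 3.03). Emcn passed under the sum of FPKM at both stages (2.01, limma adjusted p = 0.0149, and 1.74, adjusted p = 0.0310), and scaled to Cdh5 it was lower at E19.5 (-0.999, adjusted p = 0.0330). Tek was higher by 0.98 to 3.57 in E17.5 LG and 0.75 to 3.48 in E19.5 LG under all 4 scalings, and it missed the threshold only at E19.5 when scaled to Cdh5 (limma adjusted p = 0.0739). Flt1 was lower under all 4, from -0.77 to -2.89 and from -0.60 to -2.81, and it missed the threshold under the sum of FPKM (limma adjusted p = 0.207 and 0.326) and, at E19.5, under its own reads (0.0549). Vwf was lower under the 3 scalings in which it could be tested (-1.06 to -2.12 and -0.93 to -2.05). Egfl7 did not pass when scaled to its own reads (-0.67, limma adjusted p = 0.384 and 0.387), and under the sum of FPKM its difference was 0.09 and 0.01. Tie1 changed sign, from -1.64 (scaled to Cdh5, limma adjusted p = 0.00183) to 1.26 (sum of FPKM, adjusted p = 0.136) at E17.5. Taken from the median of all genes in the same scaling, Tek lay 1.52 to 2.49 above it over both stages and all 4 scalings. On the same measure Flt1 lay at -1.60 to -2.29, Egfl7 at -0.99 to -1.42 and Vwf at -1.28 to -1.65 (3 scalings), whereas Tie1 and Emcn took either sign.

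**Figure D2:**
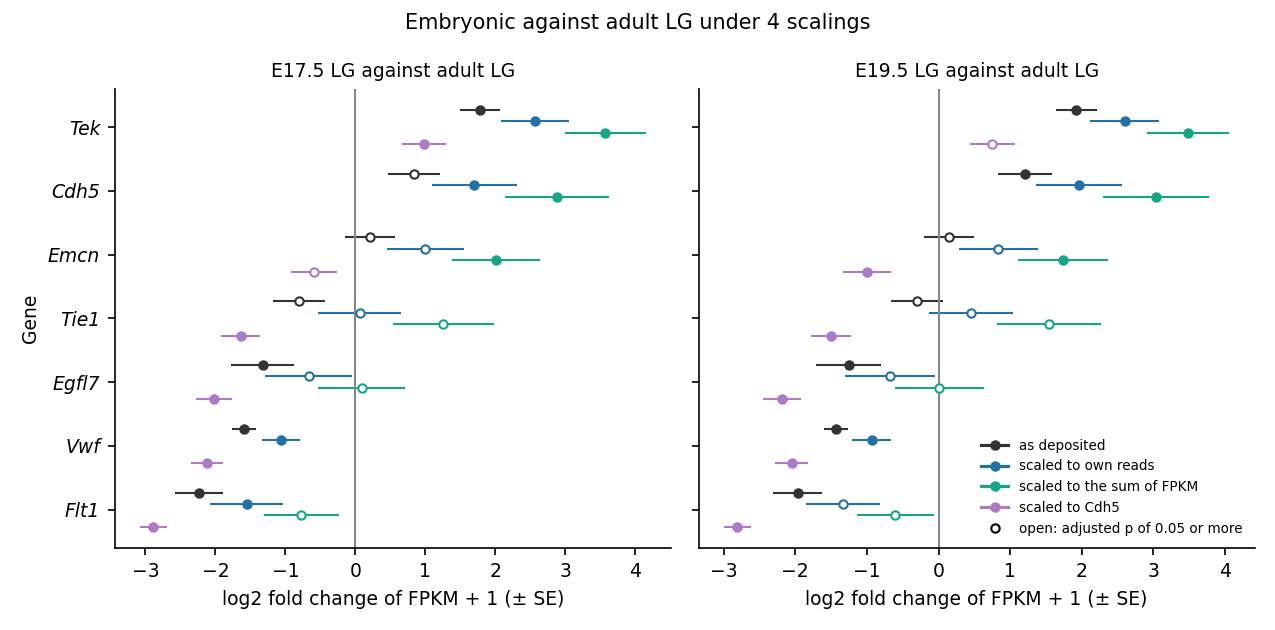
Log2 difference of FPKM + 1 (points, bars are ± SE) of the 7 tested endothelial genes in E17.5 LG and E19.5 LG against adult LG, under 4 scalings of the libraries. Tek lies to the right of 0 and Flt1 and Vwf to the left in every scaling drawn, whereas Tie1, Emcn and Egfl7 fall on either side.

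Ratios between endothelial genes within a library do not depend on its scale, and for Flt1, Tie1, Tek, Emcn and Egfl7 they spread less between the 3 adult libraries than the levels did. The highest adult ratio to Cdh5 was 1.07-fold the lowest for Flt1, 1.17-fold for Tie1, 1.29-fold for Emcn, 1.43-fold for Tek and 1.76-fold for Egfl7, where the levels spread 2.59-fold to 4.45-fold. For Vwf the ratio spread 2.07-fold and the level 1.87-fold. The ratio of Tek to Tie1 FPKM was 0.308, 0.330 and 0.270 in adult LG, 1.78, 1.80 and 2.33 in E17.5 LG, and 1.36, 1.33 and 1.88 in E19.5 LG. Tie1 was thus the more abundant receptor transcript in each adult library and Tek in each embryonic library. Relative to Cdh5, Tie1 was at 1.03, 1.19 and 1.02 in adult LG and at 0.317 to 0.375 in embryonic LG. Flt1 was at 0.159, 0.158 and 0.169 of Cdh5 in adult LG and at 0.00748 to 0.0111 in embryonic LG. Egfl7 was at 0.126 to 0.222 of Cdh5 in adult LG and 0.0196 to 0.0318 in embryonic LG, and Vwf at 0.0398 to 0.0826 and 0.00109 to 0.00359. Tek to Cdh5 was 0.276 to 0.393 in adult LG and 0.490 to 0.738 in embryonic LG. None of these 6 ratios overlapped between adult and embryonic LG. Emcn to Cdh5, at 0.329 to 0.424 in adult LG and 0.123 to 0.277 in embryonic LG, did not overlap either. The ratios are a description, and the fit scaled to Cdh5 above holds the test of the ratios to Cdh5. That fit called 45.6% of all genes at E17.5 (13.7% higher and 31.9% lower) and 49.9% at E19.5 (10.8% and 39.1%). Cdh5 was taken as the reference after seeing the data, and how many of all genes had ratios without overlap was not counted. Nothing is thus read from the lack of overlap about endothelial genes as a class.

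**Figure D3:**
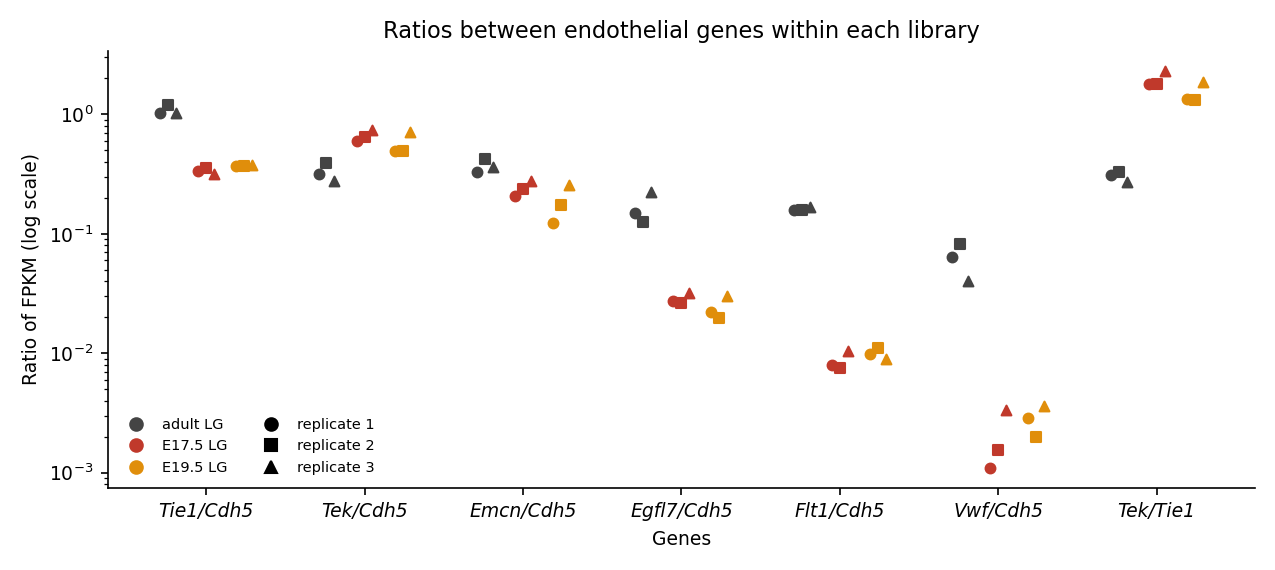
Ratio of FPKM (log scale) between pairs of endothelial genes in each of the 9 LG libraries. For Tek to Tie1 the adult points sit at 0.270 to 0.330, apart from the embryonic points at 1.33 to 2.33, and the adult points spread most, from 0.0398 to 0.0826, for Vwf to Cdh5.

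Between the embryonic stages no endothelial gene passed. By limma, 0 of the 7 tested genes differed between E19.5 and E17.5 LG, when 1.74% of all genes were called (1.11% higher and 0.624% lower), and 0 of the 7 had an unadjusted p under 0.05 (the lowest was 0.207, Tie1). Limma-voom on the recovered reads also called 0 of the 7. Tie1 (log2 difference 0.50, 95% interval -0.34 to 1.34, limma adjusted p = 0.606) and Flt1 (0.26, -0.52 to 1.05, adjusted p = 0.814) were higher in all 3 E19.5 libraries than in all 3 E17.5 libraries, as were 19.8% of all genes. The interval of Tek was -0.52 to 0.79 and that of Cdh5 was -0.49 to 1.23, so a log2 difference of 1 lay outside the interval of Tek and inside that of Cdh5.

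Beyond the 10 genes, 25 vascular growth factors and co-receptors, 30 other endothelial genes and 24 endothelial transcription factors were read in the same fit. Of 18 growth factors and co-receptors tested, 6 rose and 3 fell at E17.5, and 9 rose and 1 fell at E19.5, 9 and 10 of 18 beside the 54% and 54.2% of all genes called. Among the rises at each stage, Angpt4 passed the filter on low values through embryonic LG only, so it had to differ. Under the sum of FPKM 12 and 11 of 18 were higher and 0 lower, when 71.7% and 66.7% of all genes were higher. Scaled to Cdh5 3 and 2 were higher and 6 lower at each stage, when 13.7% and 10.8% of all genes were higher and 31.9% and 39.1% lower. The median log2 difference was 0.39 and 0.64, against 0.05 and 0.09 over all genes, and it was negative (-0.36 and -0.39) when scaled to Cdh5. Vegfa, the principal endothelial growth factor, was at 29.2 to 40.2 FPKM in adult LG, 31.4 to 43.2 in E17.5 LG and 35.0 to 37.1 in E19.5 LG (limma adjusted p = 0.397 and 0.680). Vegfc, the lymphatic growth factor, was at 0.644 to 0.857 FPKM in adult LG and did not pass (adjusted p = 0.892 and 0.963). Pgf, a ligand of Flt1, was at 185 and 210 FPKM in adult replicates 1 and 2 but at 19.9 in replicate 3. It was at 15.7 to 18.5 at E17.5 (-2.40, limma adjusted p = 0.0255, not passed under the sum of FPKM) and at 26.9 to 29.6 at E19.5 (adjusted p = 0.0869). Adult replicate 3 was thus the lowest adult library for Pgf and the highest for Flt1.

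Of the angiopoietins, ligands of Tek, Angpt1 was listed at 0 in all 20 libraries and Angpt2, which destabilises vessels, was higher in embryonic LG. Angpt2 was at 2.25, 2.82 and 7.28 FPKM in adult LG, 7.04 to 7.68 at E17.5 (log2 difference 0.83, limma adjusted p = 0.0484) and 13.6 to 15.6 at E19.5 (1.73, adjusted p = 0.00170), but scaled to Cdh5 it passed at neither stage (0.15, adjusted p = 0.666, and 0.70, adjusted p = 0.0601). The largest rises were of Nrp2, a VEGF co-receptor of veins and lymphatics, at E17.5 (2.54, limma adjusted p = 3.45e-04) and of Apln, a peptide of vessel tips, at E19.5 (2.57, adjusted p = 7.51e-05), and both kept their sign under all 4 scalings. The largest fall at both stages was of Ptprb, the phosphatase that acts on Tek, from 13.7, 17.1 and 34.9 FPKM in adult LG to 2.62 to 3.19 at E17.5 (-2.43, limma adjusted p = 2.94e-04) and 4.06 to 6.86 at E19.5 (-1.74, adjusted p = 0.00193). Its call was lost under the sum of FPKM (adjusted p = 0.457 and 0.985) and, at E19.5, under its own reads (0.140). Flt4, the lymphatic VEGF receptor, did not pass (adjusted p = 0.899 and 0.800), and Nrp1 was at 0.201 FPKM or less and was not tested.

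Of 21 other endothelial genes tested, 2 rose and 8 fell at E17.5, and 5 rose and 4 fell at E19.5, with a median of -0.59 and 0.11. Of all genes, 54% and 54.2% were called (29.1% and 30.3% higher, 24.9% and 23.9% lower). Among the falls, Selp at E17.5 and Ushbp1 at both stages passed the filter on low values through adult LG only, so they had to differ. Under the sum of FPKM 6 and 10 of 20 were higher and 0 lower, when 71.7% and 66.7% of all genes were higher. Scaled to Cdh5 0 and 1 were higher and 16 and 12 lower, when 13.7% and 10.8% of all genes were higher and 31.9% and 39.1% lower. Plvap, the diaphragm protein of fenestrated capillaries, had the largest fall. It was at 251, 336 and 572 FPKM in adult LG, above each of the 10 endothelial genes, at 27.2 to 38.4 in E17.5 LG and at 26.5 to 33.4 in E19.5 LG. Its log2 difference was -3.38 (SE 0.292, limma adjusted p = 2.94e-05) and -3.58 (adjusted p = 2.54e-05), and it stayed negative but did not pass under the sum of FPKM (-1.16, adjusted p = 0.150, and -1.58, adjusted p = 0.0651). Per Cdh5, Plvap was at 7.27 to 10.7 in adult LG and at 0.283 to 0.486 in embryonic LG. Gpihbp1, which anchors lipoprotein lipase in capillaries, had the largest rise, from 7.63, 3.83 and 23.3 FPKM to 21.5 to 25.1 at E17.5 (1.30, limma adjusted p = 0.0485, lost when scaled to Cdh5) and 50.6 to 54.8 at E19.5 (2.40, adjusted p = 0.00320). The tight junction gene Cldn5 passed at E19.5 only (0.77, limma adjusted p = 0.291, and 1.62, adjusted p = 0.0411), and not when scaled to Cdh5 (adjusted p = 0.333). The TGF-beta co-receptor Eng passed at E17.5 only (-0.94, limma adjusted p = 0.0308, and -0.36, adjusted p = 0.362), and its sign turned under the sum of FPKM (0.21). The progenitor marker Cd34 was at 0.284 FPKM or less and was not tested.

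Of 13 endothelial transcription factors tested, 4 rose and 2 fell at E17.5, and 3 rose and 2 fell at E19.5, with medians of 0.27 and 0.35 that turned negative (-0.29 and -0.64) when scaled to Cdh5. The 6 and 5 of 13 called stand beside the same 54% and 54.2% of all genes. Under the sum of FPKM 9 and 8 of 13 were higher and 0 lower, when 71.7% and 66.7% of all genes were higher. Scaled to Cdh5 2 and 1 were higher and 6 lower at each stage, when 13.7% and 10.8% of all genes were higher and 31.9% and 39.1% lower. Without adult replicate 3, 10 were called at each stage, when 63.4% and 63.6% of all genes were called. Of the called genes, Etv2 and Gata2 at both stages and Foxf1 at E17.5 passed the filter on low values only through the group in which they were high, so they had to differ. Etv2, an early regulator of blood and vessel progenitors, was listed at 0 in all 3 adult libraries and was at 1.59 to 2.15 FPKM at E17.5, and at 2.02 to 2.68 FPKM at E19.5. Sox17, a factor of arteries, had the largest fall at E17.5, from 8.86, 12.6 and 47.1 FPKM to 2.07 to 3.47 (-2.24, limma adjusted p = 0.00559). At E19.5 Sox17 was at 5.56 to 6.22 FPKM (-1.44, adjusted p = 0.0401), and its sign turned under the sum of FPKM (0.17). Foxf1, a factor of vessels and mesenchyme, had the largest fall at E19.5 (-1.49, limma adjusted p = 0.0104, lost under its own reads and the sum of FPKM). Sox18 (adjusted p = 0.0602 and 0.101) and Fli1 (0.672 and 0.661) did not pass, and Erg was at 0.0898 FPKM or less and was not tested.

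Markers of other cell types were read in the same fit, and their part in the endothelial differences was not tested. Their counts of called genes stand beside 54% of all genes called at E17.5 (29.1% higher and 24.9% lower). At E19.5 the share of all genes was 54.2% (30.3% higher and 23.9% lower). Nothing is read from counts near these shares. Summed over 12 pericyte and vascular smooth muscle genes, FPKM was 125 to 575 in adult LG, 303 to 434 in E17.5 LG and 1223 to 1279 in E19.5 LG, and of 9 tested 6 were higher in E17.5 LG and 8 in E19.5 LG, with Ndufa4l2 the largest rise (3.40 and 3.83). Pdgfrb, the defining receptor of pericytes, was at 0.0626 FPKM or less in every LG library, and Notch3 was at 0. Over 8 fibroblast genes the sum was 173 to 346 FPKM in adult LG, 5245 to 5989 in E17.5 LG and 5280 to 6378 in E19.5 LG, and 7 of 8 were higher at each stage. The lymphatic list (6 genes, 3 tested) rose through Lyve1, from 0.216 to 1.08 FPKM in adult LG to 19.52 to 24.8 in E17.5 LG and 59.8 to 70.3 in E19.5 LG, and through Pdpn, while Reln fell. Lyve1 was also higher at E19.5 than at E17.5 (limma adjusted p = 0.0199). Prox1, which defines lymphatic endothelium, was at 1.25 FPKM or less. Over 10 leukocyte genes the sum was 46.3 to 80.3 FPKM in adult LG, 36.2 to 38.6 in E17.5 LG and 46.9 to 53.2 in E19.5 LG, with 4 and 3 of 6 lower. None of them was lower when scaled to their own reads, where 11.9% and 11.7% of all genes were lower. Over 8 red cell genes the sum was 0.341 to 1.94, 21.1 to 23.0 and 4.74 to 9.81 FPKM, with 3 and 2 of 3 higher. Of the 5 platelet genes tested, 3 were higher and Itga2b lower at both stages. Of the 9 epithelial genes 3 were tested, and 2 and 1 were lower.

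In LGSC spheres, a culture grown from single gland cells, the endothelial genes were at or near 0 with the exception of Flt1. Summed over the 10 genes, FPKM was 80.6 to 244 in adult LG and 1.91 to 55.0 in the 11 sphere libraries, where most of it was Flt1. The other 9 genes were at 0.343 FPKM or less in every sphere library. Kdr and Emcn were listed at 0 in all 11, Cdh5 had 1 read in each of 4 libraries, and Tek had at most 4 reads in any library. Of 7 genes tested, 6 were lower in day 7 spheres than in adult LG and 0 were higher, when 35.2% of all 17698 genes were called (14.2% higher and 21.1% lower). These 6 (Tie1, Cdh5, Emcn, Tek, Egfl7 and Vwf) passed the filter on low values through adult LG only, so they had to differ. The log2 difference was -5.40 in Tie1, -5.35 in Cdh5, -3.99 in Emcn, -3.75 in Tek, -2.86 in Egfl7 and -1.77 in Vwf. Adult FPKM was 927-fold that of day 7 for Tie1, 273-fold for Tek and 136-fold for Egfl7, each from 6 reads over the 3 day 7 libraries. Single libraries decided these folds. All 6 reads of Tie1 were in day 7 replicate 2, and without another library its fold was 617.9 to 1129. Tek was 606-fold without day 7 replicate 2, which held 4 of its 6 reads, and Egfl7 was 474-fold without day 7 replicate 1, which held 5 of its 6 reads, and 63.5-fold without adult replicate 3.

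Most genes of the wider vascular lists also passed the filter through adult LG only. Of 22 other endothelial genes tested at day 7, 16 did so and had to differ. Of the other 6, which averaged 0.5 FPKM or more in both groups, 4 were lower and 0 higher. The largest fall was in Plvap (-7.76, limma adjusted p = 6.04e-05). Over all genes tested 21.1% were lower and 14.2% higher, but these include genes that passed the filter through 1 group only. The share among genes reaching 0.5 FPKM in both groups was not counted. Nothing is thus read from these counts or from those of the lists below. Of 11 transcription factors, the 7 called lower were the 7 that passed through adult LG only, and 0 of the other 4 were called. Of 17 growth factors and co-receptors, 9 passed through adult LG only. Of the other 8, 2 were lower, with the largest fall in Pgf (-5.48, limma adjusted p = 0.00445), and 3 were higher. The 3 were Efnb2, a ligand of arterial endothelium that epithelia also make (5.08 to 17.8 FPKM in adult LG and 73.8 to 77.6 at day 7, 2.91, limma adjusted p = 0.00303), Nrp2 (2.27, adjusted p = 0.00801) and Vegfc (1.60, adjusted p = 0.0150). Fibroblast genes summed to 0.560 to 3.33 FPKM over all spheres, and Cdh1 was at 388 to 916 FPKM.

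Flt1 alone of the better expressed genes reached or passed the adult LG range in spheres, in replicates 1 and 3, and its level differed more between replicate numbers than between days. In replicate 1 it was at 10.2, 21.2, 22.2 and 50.8 FPKM at days 5, 7, 10 and 14, and in replicate 3 at 21.1, 31.1 and 54.9 at days 7, 10 and 14. In replicate 2 it was at 1.42, 2.61, 3.79 and 3.53 FPKM at days 5, 7, 10 and 14. Replicates 1 and 3 were 5.87-fold to 15.6-fold above replicate 2 of the same day. The day 14 level was 5.00-fold that of day 5 in replicate 1 and 2.49-fold in replicate 2, and 2.60-fold that of day 7 in replicate 3, whereas replicate 2 was not higher at day 14 than at day 10. Gene-level values do not separate the full-length receptor from its secreted form.

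Against adult LG, where Flt1 was at 4.17 to 13.3 FPKM, the day 7 spheres overlapped, with a log2 difference of 0.67 (SE 0.789, limma adjusted p = 0.539). Without day 7 replicate 2 it was 1.54 (adjusted p = 0.0727). Over culture time, the difference of day 14 from day 7 was 0.96 (SE 1.18, limma adjusted p = 0.797), and 0 of all 15744 genes (0%) were called in that comparison by limma or by limma-voom, while 1557 and 1532 had an unadjusted p under 0.05. The slope of Flt1 was 0.20 per day on the log2(FPKM + 1) scale (SE 0.122, limma adjusted p = 0.388), when 2.14% of 15584 genes were called (0.648% rose and 1.5% fell). Sphere libraries of the same number moved together, replicate 2 most clearly, so the replicate number was also fitted as a block. The slope of Flt1 was then 0.17 per day (SE 0.0285, limma adjusted p = 0.0132) and passed, when 5.02% of all genes were called. Day 14 against day 7 did not pass (adjusted p = 0.305). Without replicate 2 of every day, the slope of Flt1 was 0.22 per day (adjusted p = 0.0202), when 1.83% of all genes were called. Vegfa, the ligand of Flt1, rose along the same days, from 15.1 and 17.6 FPKM at day 5 to 45.3, 52.6 and 133 at day 14 (0.20 per day, limma adjusted p = 0.0331).

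Replicate 2 of the spheres stood apart in other genes as well. Of 15584 genes, 4.77% were higher and 5.89% lower in all 7 libraries of replicates 1 and 3 than in all 4 of replicate 2, and Flt1 ranked 16 by the size of the log2 difference. Acta2, a smooth muscle and myoepithelial actin, was at 1.02 to 4.72 FPKM in replicate 2 and 9.31 to 180 in the others. Tie1 went the other way, with 26 reads over the 4 replicate 2 libraries and 0 over the 7 others. Which feature of the cultures the number marks was not given in the sources used here.

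**Figure D4:**
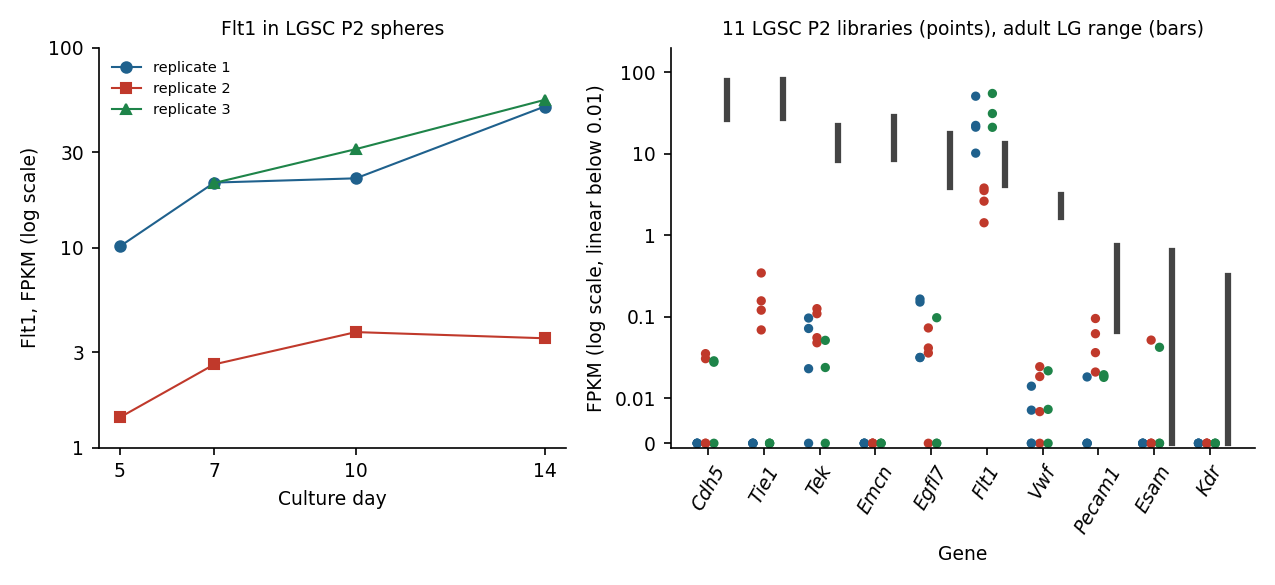
Left, Flt1 FPKM (log scale) in each LGSC P2 library by culture day, joined by replicate number, with replicate 2 at 1.42 to 3.79 FPKM below replicates 1 and 3. Right, FPKM (log scale, linear below 0.01) of the 10 genes in the 11 sphere libraries (points, colours as on the left) beside the adult LG range (bars), where Flt1 alone reaches or passes the adult range among the 7 genes above 1 FPKM in every adult library.

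The genes whose pattern over the 9 LG libraries was most like the mean log2(FPKM + 1) of the 10 endothelial genes were ranked among 11201 other genes by Pearson's r, as a description across libraries that share the adult scale. They were Ndrg1 (0.989), Trf (0.984), Timp3 (0.979), 4930578C19Rik (0.974), Gsn (0.971), Notch4 (0.970), Card14 (0.968), Pdk4 (0.967), Pnliprp1 (0.967) and Hmgn3 (0.963). Of these, Notch4, a Notch receptor of arterial endothelium, is endothelial by its known expression, at 6.63, 9.51 and 25.7 FPKM in adult LG. The 50 genes of the wider vascular lists among the candidates had a median r of 0.63, against -0.14 over all candidates, and 5 of them were in the top 100. The tested endothelial genes did not share 1 pattern, as r between them ran from -0.84 (Tek and Vwf) to 0.97 (Flt1 and Vwf). Likeness to their mean is therefore not likeness to each of them.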

How the data were processed

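Poly-T selected mRNA from LG and LGSC spheres was sequenced as paired-end reads. Per the labels the authors used CASAVA 1.8, HISAT2 2.0.5, featureCounts 1.5.0-p3 and build NCBIM37. The authors deposited 1 FPKM table per library. The step from counts to FPKM was not given in the sources used here, and gene lengths fitted GENCODE M21 (GRCm38) for 94.0% of detected genes. The recovered reads (whole within 0.01 for 92.6% to 93.6% of genes up to 1000 reads in the compared libraries) came from these steps, and depth was 6063526 to 9454859 reads per library. The deposited scale was not the library total. Recovered reads over that scale, relative to E17.5 LG replicate 2, came to 2.56, 2.38 and 1.11 in adult LG replicates 1, 2 and 3 and 0.885 to 1.18 in the others.

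Log2(FPKM + 1) was tested with limma 3.58.1 (trend, R 4.3.3) for genes averaging 0.5 FPKM or more over the libraries fitted, with Benjamini-Hochberg adjustment over all genes and a threshold of 0.05. The 9 LG libraries shared a fit. Scripts ran in Python 3.11.15 and were tested on simulated data. Alternatives were a pseudocount of 0.1, no filter, other scalings, limma-voom on recovered reads, a replicate block, the 2 groups alone, other day ranges and single libraries left out. Scaling to Cdh5 and leaving out replicate 2 of every day were chosen after seeing the data. The genes, lists and tests were chosen with earlier results of these data known. All 10 genes are named, with preset genes of the wider lists and the largest rise and fall in each.

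Same-numbered sphere libraries deviated together (r 0.26 to 0.72 over all pairs). Replicates 1 and 3 of different days also deviated together (r 0.14 to 0.44). Day 7 replicate 3 was closer to day 14 replicate 1 (0.417) than to day 14 replicate 3 (0.263). The data thus set replicate 2 apart and pair replicates 1 and 3 by number less clearly. LG numbers (r -0.08 to 0.07) paired nothing. The P10 library was made against another gene list and entered no test.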

Additional observations from a re-analysis of the deposited data

Results flagged for a closer look

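The single P10 sphere library (25172924 recovered reads, a different gene list, not tested) held reads of 5 of the 10 endothelial genes, above the limit of 3 reads that a count of 0 allows. Flt1 was at 6.69 FPKM from 2149 reads, inside the range of the P2 spheres at day 7. Egfl7 was at 1.36 FPKM from 116 reads and Pecam1 at 0.628 FPKM from 93 reads, against at most 0.164 and 0.0947 FPKM in P2 spheres. Esam was at 0.235 FPKM from 16 reads and Vwf at 0.0393 FPKM from 15 reads. Cdh5, Kdr, Tek, Tie1 and Emcn were listed at 0. In the same library Krt14 was at 7065 FPKM and Epcam at 261 FPKM, so its scale and gene list differ from those of the P2 libraries, and the part of that difference in these values was not tested.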

How the results depend on the processing

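Of 461 values of single genes under the alternatives, 403 kept their direction and side of the threshold, 29 lost the threshold, 12 gained it and 17 changed sign. Counts of called endothelial genes were 4 at E17.5 and 5 at E19.5 as reported, 3 to 6 at each stage with a library left out, and 3 at E19.5 under own reads, under the sum of FPKM or in a fit of the 2 groups alone. The share of all genes called moved too. With a library left out it was 45.3% to 63.4% at E17.5 and 45.0% to 63.6% at E19.5. It was 58.4% and 55.8% under own reads and 76.6% and 71.3% under the sum of FPKM. In the fit of the 2 groups alone it was 45.7% at E19.5. Other endothelial genes fell from 10 to 4 (own reads) and 6 (sum of FPKM) at E17.5, with 6 to 11 when a library was left out (6 without E17.5 replicate 2), and ranged from 5 (without E19.5 replicate 2) to 14 (without adult replicate 3) at E19.5. Transcription factors ranged from 4 to 10 at both stages and were 3 (own reads) and 8 (sum of FPKM) at E19.5. Signs turned for Tie1 at 0.062 and 1.26 (own reads, sum of FPKM) at E17.5 and 0.45, 1.54 and 0.13 (without adult replicate 3, range -0.63 to 0.13) at E19.5, for Emcn at -0.15 and -0.21 (without adult replicate 1, ranges -0.15 to 0.65 and -0.21 to 0.59) and -0.59 and -0.999 (Cdh5), and for Egfl7 at 0.091 and 0.011 (sum of FPKM). Between E19.5 and E17.5, where nothing passed, signs turned for Tek (-0.088 by the sum of FPKM and -0.23 by Cdh5), Emcn (0.044 without E19.5 replicate 1, range -0.18 to 0.044) and Egfl7 (-0.0050, -0.081 and -0.17 by own reads, sum of FPKM and Cdh5). The cause was not tested. The replicate block raised the slope call in spheres from 0 to 1 gene, as did leaving out replicate 2. Flt1 was the only endothelial gene tested there, and of all genes 5.02% and 1.83% were called, against 2.14% as reported. In LG, where numbers paired nothing, the block gave 4 and 4 called genes, beside 51.1% and 51.3% of all genes, and lost Cdh5 at E19.5 (adjusted p = 0.0513). Pecam1, Kdr and Esam had at most 35 reads a library, too few to compare groups, and the cause of their low values was not tested.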
